A study of Mus musculus with 4 samples.

Results

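The genes described here are direct transcriptional targets of p53, the tumour suppressor encoded by Trp53, measured in epithelial cells of mouse skin carcinomas. Of 10 genes listed for the purpose (Trp53 itself, Mdm2, Zmat3, Ccng1, Perp, Bbc3, Bax, Sesn2, Trp53inp1 and Fas), those with at least 1 probe set that the platform annotation assigns to that gene alone were taken. This left 8 genes with 14 probe sets, of 18193 genes and 45037 probe sets in all. No probe set was assigned to Trp53 or Bax in that annotation, so neither gene was analysed here, and the level of p53 transcript is not part of what follows.

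RNA came from carcinomas that had been induced chemically, and the series text gives 2 tumours of 2 mice as the source. Epithelial cells were sorted by the surface protein Epcam, cells with the leukocyte, endothelial and mesenchymal markers CD45, CD31 and CD140a were gated out, and the rest were divided by a Sox2-GFP fluorescent reporter, meant to mark cells that use the gene of the stem cell factor Sox2. The Sox2-GFP-positive group has 2 arrays, replicates 1 and 2, and the Sox2-GFP-negative group, the control, has 2 as well. Both groups carry the same label, malignant tumour, and the sources used here do not give strain, age, sex or inducing agent. Values are deposited log2 intensities of Affymetrix probe sets, so 1 unit is a doubling, and differences are positive minus negative. With 2 arrays a group, precision is limited by their number.

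p53 is a transcription factor that is held at a low level by Mdm2, an enzyme that marks it for destruction and that p53 itself induces, so that the pair forms a feedback loop. When DNA is damaged or an oncogene drives division, p53 is released and switches on its target genes. These act on the cell cycle or on Mdm2 (among them Ccng1), bind RNA (Zmat3), restrain growth signalling (Sesn2), promote autophagy (Trp53inp1) or promote death (Bbc3, Bax, Fas, Perp). Trp53 is often mutated in squamous carcinomas of the skin, and several of its targets are also driven by its relative p63, the master factor of stratified epithelium.

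The promoter windows of Ccng1 and Mdm2 are printed because these genes lay at opposite ends of the differences among the 8 genes, and each window holds a match to the p53 half-site consensus, the decamer that p53 binds in pairs. The windows, read from RefSeq on GRCm38.p6, run 5′ to 3′ on the gene's strand from 250 bases before to 50 bases after the transcription start. Ccng1 is on the minus strand at chr11:40755237-40755536 and Mdm2 on the minus strand at chr10:117710709-117711008. Capitals mark the half-site match.
Ccng1: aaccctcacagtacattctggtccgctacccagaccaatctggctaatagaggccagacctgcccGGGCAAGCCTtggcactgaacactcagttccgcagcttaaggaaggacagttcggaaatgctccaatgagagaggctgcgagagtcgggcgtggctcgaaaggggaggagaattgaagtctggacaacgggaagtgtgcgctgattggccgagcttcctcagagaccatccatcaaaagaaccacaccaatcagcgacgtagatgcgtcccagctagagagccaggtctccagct
Mdm2: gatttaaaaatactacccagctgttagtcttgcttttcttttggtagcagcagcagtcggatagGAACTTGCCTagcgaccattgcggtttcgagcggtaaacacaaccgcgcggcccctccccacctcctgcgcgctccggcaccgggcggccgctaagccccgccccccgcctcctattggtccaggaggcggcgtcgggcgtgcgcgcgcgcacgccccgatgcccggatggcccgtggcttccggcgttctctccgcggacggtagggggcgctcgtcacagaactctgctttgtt
The match begins 185 bases upstream of the start in Ccng1 and 186 bases upstream in Mdm2. The half-site consensus, alone or in pairs the only motif searched, reads alike on both strands and was searched by letters alone. It occurs in 8.36% of the 32851 windows of this length. In Ccng1 the decamer directly before the match, agacctgccc, departs from the consensus at 1 base, which makes a nearly complete pair. In Mdm2 the decamer before it departs at 6 bases and the one after it at 5. A half-site with an adjoining decamer like that of Ccng1 (at most 1 mismatch) was found in 0.0883% of all windows. That limit is the one the Ccng1 window itself shows, so the share is no test of it. An exact pair, with 0 to 13 bases between, was found in 0.0731% and in none of the windows of the listed genes. Of the 8 measured genes, 5 had a window in the table, and Bbc3, Fas and Sesn2 held no match in theirs. That says only that these letters are absent from those 300 bases: the well known p53 elements of Mdm2, for example, lie in an intron outside this window.

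The main comparison asked how the targets differ with the Sox2-GFP reporter. Ccng1 and Zmat3 read higher in both positive arrays than in both negative arrays, 2.69-fold and 2.53-fold. All 3 Mdm2 probe sets read lower in positive cells at each replicate number as deposited (1.22-fold to 2.62-fold on average, groups overlapping), and 2 of them turned above 0 once arrays were scaled to the spike-in transcripts. As deposited, Perp and Fas differed by less than 0.1 log2, and Bbc3, Sesn2 and Trp53inp1 overlapped between groups. None of the 14 probe sets passed a limma adjusted p of 0.05, where 0% of the 45037 probe sets tested did. Unadjusted p was under 0.05 for 4 of the 14, all higher (the Ccng1 and Zmat3 probe sets), beside 7.44% of all probe sets higher and 6.61% lower.

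**Figure D1:**
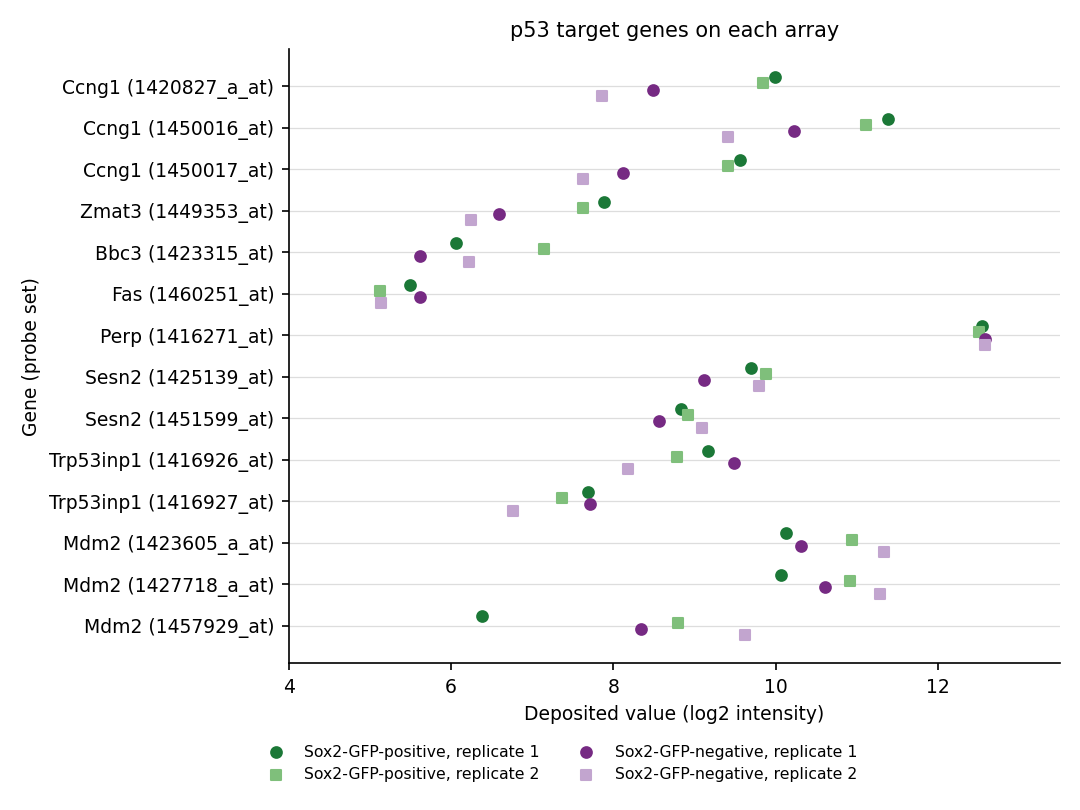
Deposited log2 intensity (horizontal axis) of each of the 14 probe sets (rows) on the 4 arrays; green points are positive arrays, purple points negative arrays, circles replicate 1 and squares replicate 2. For Ccng1 and Zmat3 both green points lie to the right of both purple points. In each Mdm2 row both circles lie to the left of both squares, while the green and purple points overlap.

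Ccng1 encodes cyclin G1, which recruits a phosphatase to Mdm2 and is among the most regularly induced p53 targets. Its brightest probe set (1450016_at) read 11.38 and 11.11 in positive, 10.22 and 9.41 in negative cells. The groups did not overlap, and the nearest positive and negative arrays lay 0.89 apart. The difference was 1.43 ± 0.33 (SE, n = 2 per group; 95% interval 0.56 to 2.30; limma adjusted p = 0.252). The other probe sets of the gene gave larger differences, 1.74 ± 0.27 for 1420827_a_at and 1.61 ± 0.24 for 1450017_at (adjusted p = 0.226 for both). The first of these read 9.99 and 9.84 against 8.49 and 7.86, and the second 9.56 and 9.41 against 8.12 and 7.63. All 3 were designed from the same sequence record, per the platform annotation, so they are repeated readings of 1 transcript and not independent measurements.

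Within the replicate 1 arrays the Ccng1 differences were 1.15 to 1.50, and within the replicate 2 arrays 1.70 to 1.98. Of all genes, each taken by its brightest probe set, 0.682% had a larger positive difference than Ccng1. In either direction, 2.98% had a larger absolute difference. The 3 genes of at least median level whose profile over the 4 arrays was nearest to that of Ccng1, by Euclidean distance of values centred on each gene's mean, were Lxn (distance 0.06), Mgarp (0.11) and Ltbp1 (0.16). Lxn, which encodes the carboxypeptidase inhibitor latexin, read 9.29 and 9.01 against 8.05 and 7.27. With 4 arrays such nearness is a description of these arrays only.

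Zmat3 encodes a zinc finger protein that binds RNA and is a conserved p53 target. Its only probe set (1449353_at) read 7.88 and 7.63 in positive, 6.59 and 6.24 in negative cells. The groups stood 1.04 apart at their nearest, wider than the 0.25 and 0.35 between replicates. The difference was 1.34 ± 0.22 (SE, n = 2 per group; 95% interval 0.76 to 1.93; limma adjusted p = 0.232), with 1.29 in replicate 1 and 1.39 in replicate 2. A larger positive difference was seen in 0.901% of genes, and a larger absolute difference in 3.53%.

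Mdm2, the inhibitor of p53, had 3 probe sets, and in all of them the replicate 2 arrays were brighter than the replicate 1 arrays of the same group. The brightest (1427718_a_at) read 10.06 and 10.92 in positive, 10.61 and 11.28 in negative cells, so the groups overlapped. A second (1423605_a_at) read 10.13 and 10.94 against 10.31 and 11.33. The third (1457929_at) spread most, at 6.38 and 8.80 against 8.34 and 9.62. Positive was below negative in 6 of the 6 same-number differences, from -0.18 to -1.96. These 6 come from 3 probe sets of 1 gene on the same arrays and are not independent measurements. The labels do not tie the replicate numbers to a tumour. Taken across the numbers, positive replicate 2 lay above negative replicate 1 in all 3 probe sets.

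Over both replicates the Mdm2 differences were -0.45 ± 0.40, -0.28 ± 0.46 and -1.39 ± 0.92 (SE, n = 2 per group; limma adjusted p = 0.645, 0.813 and 0.548). Replicate 2 exceeded replicate 1 by 0.87 in positive and by 0.66 in negative cells for the brightest probe set, more than the difference between groups. With the replicate number as a block the SEs narrowed to 0.22, 0.22 and 0.34 and the adjusted p were 0.404, 0.597 and 0.211. The dimmest had an unadjusted p of 0.0117 in that limma fit and the others 0.0966 and 0.256, and none of the 3 passed after adjustment in either fit. The probe sets disagreed in size: the dimmest gave 2.62-fold lower in positive cells and the others 1.22-fold to 1.37-fold. The brightest stood at -0.02 without positive replicate 1 and at -0.89 without positive replicate 2. After scaling to the spike-in transcripts the 2 brighter ones stood at 0.34 and 0.51 and the dimmest at -0.60.

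Among the genes of cell death, Bbc3 encodes Puma, a BH3-only protein that frees the pore-forming members of its family. Bbc3 (1423315_at) read 6.06 and 7.15 in positive, 5.62 and 6.22 in negative cells. Positive was above negative at both replicate numbers, by 0.44 and 0.93, but positive replicate 1 lay below negative replicate 2. The difference was 0.69 ± 0.44 (SE, n = 2 per group; 95% interval -0.49 to 1.86; limma adjusted p = 0.538). It was 0.15 without positive replicate 2, 0.39 without negative replicate 1, and 1.23 without positive replicate 1. Spike-in scaling raised it to 1.48 ± 0.42 (limma adjusted p = 0.0324), where the all-gene median rose to 0.93 and 60% of all probe sets passed.

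Fas encodes the death receptor for Fas ligand. Its probe set (1460251_at) read 5.49 and 5.13 in positive, 5.62 and 5.14 in negative cells, between the 43.2 and the 50.3 percentile of all probe sets on its array. With no detection calls in the table, such middling values only bound the transcript. The difference was -0.07 ± 0.26 (SE, n = 2 per group; adjusted p = 0.929), and its 95% interval of -0.76 to 0.63 leaves room for a change of more than 1.5-fold either way. Spike-in scaling turned it to 0.72 ± 0.32 (limma adjusted p = 0.0961), where the all-gene median rose to 0.93.

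Perp encodes a membrane protein of desmosomes, the junctions that hold keratinocytes together, and is a target of both p53 and p63. It was the brightest of the 8 genes, at 12.54 and 12.51 in positive, 12.58 and 12.58 in negative cells, at or above the 99.3 percentile of every array. The positive arrays lay below the negative ones by 0.04 at the nearest, and the difference was -0.05 ± 0.17 (SE, n = 2 per group; 95% interval -0.50 to 0.40; adjusted p = 0.914). Other scalings turned the sign: equal column medians gave 0.03, and spike-in scaling gave 0.74 ± 0.23 with a limma adjusted p of 0.039, a call for higher in positive cells. Under spike-in scaling the all-gene median stood at 0.93, above that of Perp, and 60% of all probe sets passed.

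Sesn2 encodes sestrin 2, which restrains the growth kinase mTORC1 and answers to nutrient and oxidative stress as well as to p53. The brighter probe set (1425139_at) read 9.69 and 9.88 in positive, 9.12 and 9.79 in negative cells, and the other (1451599_at) 8.83 and 8.92 against 8.56 and 9.09. Both overlapped between groups, with differences of 0.33 ± 0.29 and 0.05 ± 0.25 (SE, n = 2 per group; limma adjusted p = 0.638 and 0.945). The larger of these rested on the low negative replicate 1, without which it was -0.002. Spike-in scaling raised it to 1.12 ± 0.26 (limma adjusted p = 0.0271), where the all-gene median rose to 0.93 and 60% of all probe sets passed.

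Trp53inp1 encodes a nuclear protein that aids p53 phosphorylation and autophagy. The brighter probe set (1416926_at) read 9.16 and 8.78 in positive, 9.48 and 8.18 in negative cells, so both positive arrays lay between the negative ones. The other (1416927_at) read 7.69 and 7.37 against 7.71 and 6.76. The differences, 0.14 ± 0.48 and 0.29 ± 0.37 (SE, n = 2 per group; adjusted p = 0.920 and 0.755), were below 0 in replicate 1 (-0.32 and -0.02) and above it in replicate 2 (0.59 and 0.61).

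**Figure D2:**
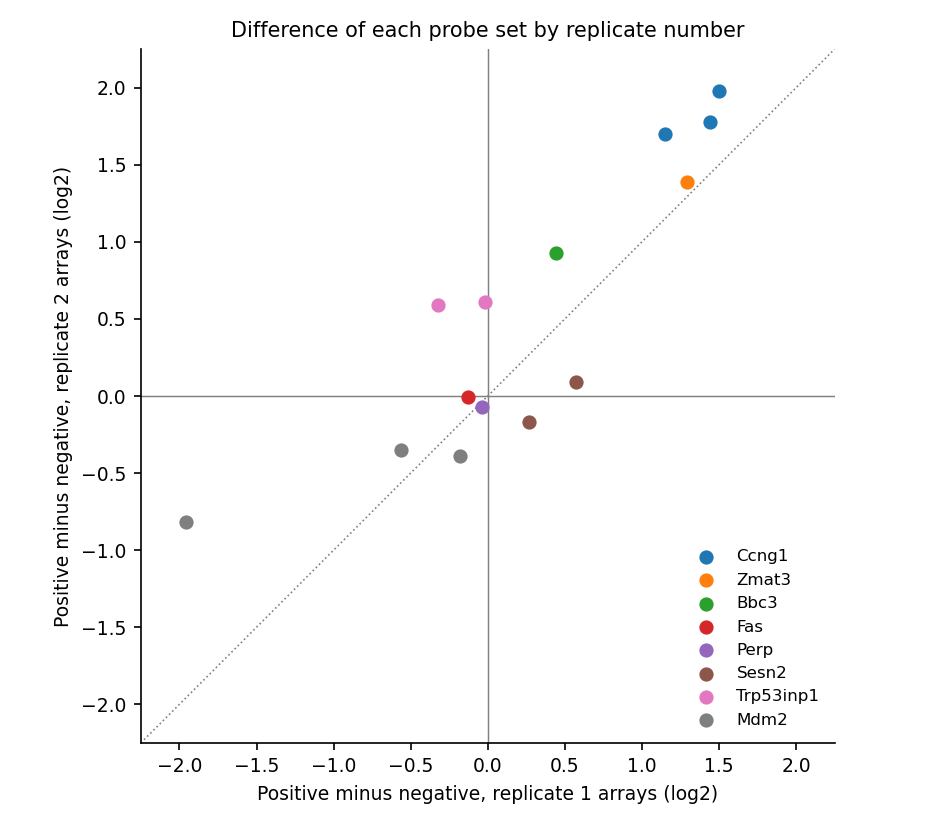
Positive minus negative difference (log2) of each of the 14 probe sets in the replicate 1 arrays (horizontal axis) and in the replicate 2 arrays (vertical axis); 1 point is 1 probe set, coloured by gene, and the dotted line marks equal differences. The Ccng1 and Zmat3 points lie at 1.15 or more on both axes, those of Mdm2 lie below 0 on both as deposited (2 of the 3 turn above 0 on average after spike-in scaling), and those of Trp53inp1 have opposite signs.

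Taking each gene by its brightest probe set, 2 of the 8 had both positive arrays above both negative arrays and 1 (Perp) had both below, while 5 overlapped. Over all 18193 genes the shares were 35.5% above and 14% below (9.81% higher and 5.05% lower at an unadjusted p under 0.05), so the 8 targets were apart no more often than genes at large. Their median difference was 0.23, beside 0.14 over all genes, and 0.20 and 0.34 at the 2 replicate numbers. The 24 probe sets of the bacterial spike-in transcripts were fainter in positive arrays (9.63 and 9.55 on average in positive, 10.26 and 10.51 in negative arrays). Setting them equal raised the all-gene median to 0.93 and that of the targets to 1.03.

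As deposited, the targets did not share 1 direction, while spike-in scaling put the brightest probe set of each above 0 (lowest for Mdm2, 0.34). Relative to the all-gene median under each scaling, Ccng1 and Zmat3 lay above it and Mdm2 below it. Spike-in scaling and equal column medians shift all genes alike and cannot change that order, so only quantile normalization could have. With spike-in scaling 8 of the 14 probe sets passed an adjusted p of 0.05, where 60% of all probe sets did. With the replicate number as a block, none of the 14 passed and 0% of all did. With that block and 1 probe set per gene, an alternative added after seeing the data, 0 of the 8 passed (adjusted p = 0.0823 for Zmat3 and 0.0884 for Ccng1), where 0.0715% of genes were called higher and 0.868% lower.

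Other genes of the pathway were read from lists chosen by function. Among 19 measured members of the p53 family and its regulators, limma called 0, the median difference was -0.03, and 6 were apart above (31.6%, beside 35.5% of all genes) and 2 below (10.5%, beside 14%). Unadjusted p was under 0.05 for 3 higher and 1 lower gene, where 9.81% of all genes were higher and 5.05% lower by that measure. Trp63, which encodes p63, was bright in all arrays, at 12.66 and 12.68 against 12.37 and 12.47. Mdm4, a partner of Mdm2 in silencing p53, read 8.46 and 8.29 in positive, 9.43 and 9.23 in negative cells, a difference of -0.95 ± 0.19 (SE, n = 2 per group; adjusted p = 0.243). It stayed below 0 with spike-in scaling (-0.16).

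Upstream of p53, Chek2, a kinase of the DNA damage checkpoint, read 6.27 and 6.88 against 4.57 and 5.16 (1.71 ± 0.33, adjusted p = 0.243). Cdkn2a, whose Arf product blocks Mdm2, read 5.99 and 6.26 against 4.75 and 4.58 (1.46 ± 0.20, adjusted p = 0.226). Atm, the kinase that senses double-strand breaks, read 7.99 and 8.06 against 7.51 and 7.23 (0.66 ± 0.19, adjusted p = 0.294). For these 3 the groups did not overlap, and none passed over all probe sets. With the replicate block and 1 probe set per gene, the alternative added after seeing the data, Chek2 passed (limma adjusted p = 0.0482), 1 of 13 genes called higher in that fit, while Cdkn2a and Atm did not (adjusted p = 0.0807 and 0.277). The negative arrays of Chek2 and Cdkn2a lay below the median of their arrays (5.56 and 5.60), so their folds rest on dim readings.

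Further p53 targets divided by function. Of 16 cell cycle and repair targets, 5 were apart above (31.2%, beside 35.5% of all genes) and 1 below (6.25%, beside 14%). Their median was 0.13, and limma called 0. At an unadjusted p under 0.05, 1 was higher and 1 lower, beside 9.81% and 5.05% of all genes. Cdkn1a, which encodes the cell cycle inhibitor p21, overlapped, at 11.68 and 11.48 against 11.10 and 11.61. Gtse1, a mitotic protein that also restrains p53, read 7.58 and 7.56 against 6.97 and 7.04. Psrc1, a spindle protein, was lower, with 7.61 and 6.81 against 8.38 and 8.42.

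Of 17 measured targets of death and metabolism, 10 were apart above (58.8%, beside 35.5% of all genes) and 2 below (11.8%, beside 14%). Their median was 0.55 (0.40 in replicate 1 and 0.85 in replicate 2), beside 0.14 over all genes. Limma called 0, with an unadjusted p under 0.05 for 8 higher and 1 lower gene, where 9.81% of all genes were higher and 5.05% lower by that measure. Aen, a nuclease that degrades DNA in dying cells, read 9.77 and 9.79 against 8.79 and 8.54 (1.12 ± 0.19, adjusted p = 0.233). Ephx1, a detoxifying epoxide hydrolase, read 8.52 and 8.44 against 7.66 and 7.77 (0.76 ± 0.17, adjusted p = 0.251). Tnfrsf10b, the mouse receptor for the death ligand Trail, read 7.94 and 8.33 against 7.05 and 7.38 (0.92 ± 0.24, adjusted p = 0.270), and Dram1, a membrane protein of autophagy, 9.13 and 9.90 against 8.58 and 8.05.

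**Figure D3:**
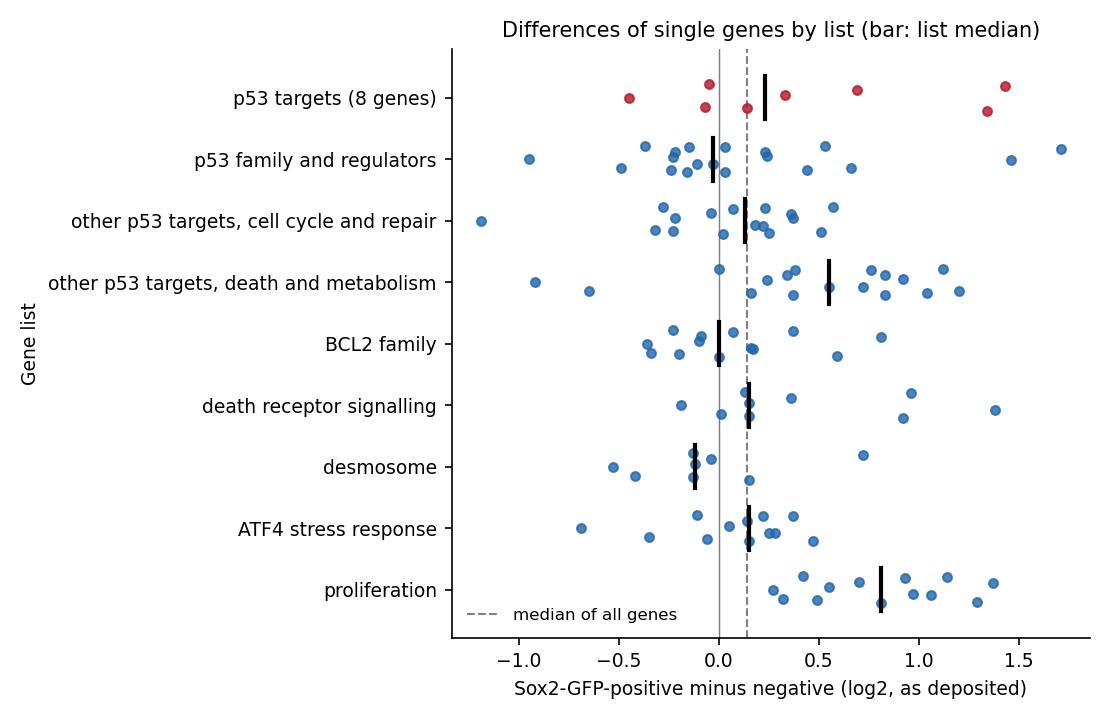
Positive minus negative difference (log2, as deposited) of single genes, each by its brightest probe set, for the 8 p53 targets (red) and the gene lists (blue); black bars are list medians and the dashed line is the median of all genes, 0.14. The p53 targets reach from -0.45 to 1.43, and the list medians from -0.12 (desmosome) to 0.81 (proliferation); spike-in scaling adds the same amount to every point, which puts all of these list medians above 0.

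Partners of the death genes were mixed. In the BCL2 family, which Bbc3 acts on, 13 genes were measured and the median was 0.00. Of these, 2 were apart above (15.4%, beside 35.5% of all genes) and 1 below (7.69%, beside 14%). Bak1, a pore-forming relative of Bax, read 11.15 and 10.76 against 10.13 and 10.17 (0.81 ± 0.21, adjusted p = 0.273), and Bok, a further relative of Bax, 9.67 and 9.88 against 9.14 and 9.22 (0.59 ± 0.18, adjusted p = 0.307). These were the 2 genes of the family with an unadjusted p under 0.05. The survival protein gene Mcl1 (unadjusted p = 0.149 by limma) read 11.11 and 10.83 against 11.39 and 11.24. In death receptor signalling, 9 genes were measured, with a median of 0.15 beside 0.14 over all genes. Among them 5 were apart above (55.6%, beside 35.5% of all genes) and none below (beside 14%). The adaptors that couple receptors to caspases read higher: Tradd at 8.88 and 9.11 against 7.66 and 7.56 (1.38 ± 0.19, adjusted p = 0.226), and Fadd at 8.22 and 8.48 against 7.41 and 7.37 (0.96 ± 0.19, adjusted p = 0.243). Fasl, the ligand of Fas, lay near the floor of the arrays, at 3.51 and 4.47 against 3.55 and 4.12. Limma called 0 in both lists, with 2 and 3 higher and 0 lower at an unadjusted p under 0.05. By that measure 9.81% of all genes were higher and 5.05% lower.

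The companions of Perp and Sesn2 differed in both directions. Of 8 measured desmosome genes 1 was apart above (12.5%, beside 35.5% of all genes) and 3 below (37.5%, beside 14%), with a median of -0.12. The smallest p in the list belonged to Dsc2, a desmosomal cadherin, at 9.43 and 8.91 against 8.76 and 8.15 (0.72 ± 0.31, adjusted p = 0.402), 1.65-fold above. Dsp, the plaque protein desmoplakin, read 12.73 and 12.98 against 13.25 and 13.30 (-0.42 ± 0.19, adjusted p = 0.412), and the plakophilin gene Pkp2 overlapped, with a difference of -0.53. Of 12 genes of the ATF4 stress response, another route to Sesn2, 1 was apart above (8.33%) and 2 below (16.7%). Their median was 0.15, beside 0.14 over all genes. Limma called 0 in both, and of their genes only Slc7a11, a cystine transporter, had an unadjusted p under 0.05, lower at 5.34 and 4.92 against 5.75 and 5.90.

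Other properties of the arrays moved with the same groups. Proliferation genes read higher in positive cells: 13 of 13 were apart above, beside 35.5% of all genes, and the median difference was 0.81, beside 0.14. Of the 13, 10 had an unadjusted p under 0.05, beside 9.81% of all genes higher by that measure. Averaged over the list and centred on each gene's mean, they stood at 0.42 and 0.37 in positive, -0.46 and -0.33 in negative cells. Fibroblast markers read lower: 10 of 10 were apart below, beside 14% of all genes (median -2.61), centred at 0.01 and -2.58 in positive, 2.06 and 0.51 in negative cells. Endothelial markers (2 of 10 apart below, 20%), leukocyte markers (3 of 11 below, 27.3%, and 1 above, 9.09%) and melanocyte markers (5 of 6 below, 83.3%) were also highest in negative replicate 1. Their centred levels were -0.09 and -0.83 against 1.21 and -0.28 for endothelium, -0.03 and -0.64 against 0.90 and -0.24 for leukocytes, and -0.43 and -0.92 against 0.89 and 0.46 for melanocytes. No marker has a true zero on these arrays, and Col1a1, a collagen gene of fibroblasts, read 9.60 or more in all 4.

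The label of epithelial cells was read against keratinocyte markers, which also differed between the groups. Of 5 basal markers 4 were apart above (80%, beside 35.5% of all genes) and 1 below (20%, beside 14%), with a median of 0.48. The keratins Krt5 and Krt14 read 12.99 to 13.32 in all 4 arrays. The differences of the matrix adhesion genes were 1.22 for Itgb4, 0.56 for Itga6 and 0.48 for Col17a1. Of 5 suprabasal markers, which mark differentiating keratinocytes, 3 were apart below (60%) and 1 above (20%), with a median of -1.66. Krt1 differed by -1.94, Krt10 by -1.66 and Flg by -2.48, and Ivl by 0.41. Of 6 epithelial markers 2 were apart above and 2 below (33.3% each), with a median of -0.00. The keratin gene Krt18 differed by 1.45 and the epithelial cadherin gene Cdh1 by -0.96, and Epcam, the sorting marker, overlapped (-0.26). Limma called 0 of these markers over all probe sets. The replicate block with 1 probe set per gene was an alternative added after seeing the data. In that fit limma called Flg lower (adjusted p = 0.039). It also called 4 of the 10 fibroblast, 1 of the 10 endothelial and 2 of the 6 melanocyte markers, all lower. Of all genes, that fit called 0.868% lower and 0.0715% higher. The part of these marker differences in the p53 target values was not tested.

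**Figure D4:**
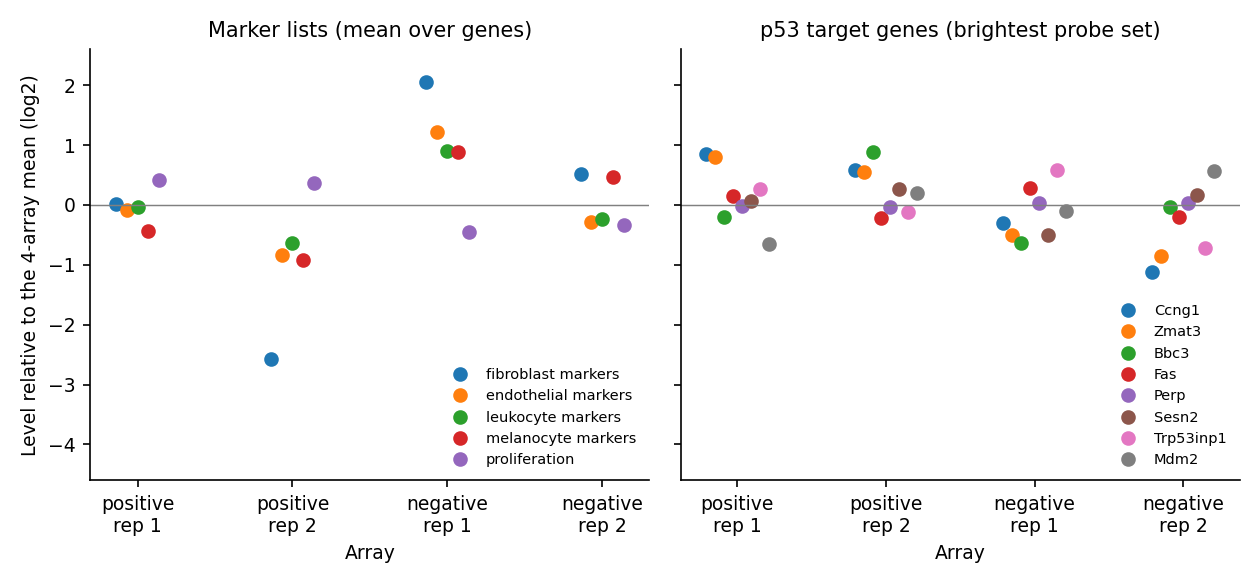
Left, mean log2 level of the marker lists on each array relative to each gene's 4-array mean; right, the same for the 8 p53 targets by their brightest probe sets. Fibroblast markers range from -2.58 in positive replicate 2 to 2.06 in negative replicate 1 and lie lower in both positive arrays than in both negative arrays. Ccng1 and Zmat3 are above their mean in both positive arrays and below it in both negative arrays.

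The part of stromal RNA in the p53 target values was not tested. Without negative replicate 1, the array with the highest fibroblast markers, these still stood at a median of -1.85 with 10 of 10 apart below. The differences without that array were 1.83 ± 0.30 for Ccng1 and 1.51 ± 0.30 for Zmat3 (limma adjusted p = 0.575 for both) and -0.79 for Mdm2. Without negative replicate 2, the array with the lowest Ccng1, they were 1.02 for Ccng1, 1.17 for Zmat3 and -0.12 for Mdm2. In sorted pools such as these, fewer cells with a transcript and less transcript per cell cannot be told apart.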

How the data were processed

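The authors deposited 1 table of log2 intensities with 45101 probe sets and 4 columns, 1 per array; the log2 scale was read from the values (2.73 to 14.36). The submitters' processing notes name R 2.14.0; how background, scaling and probe set summary were handled is not given in the sources used here. Bacterial transcripts were added to the RNA before amplification and biotin labelling, per the labels' protocols. Groups and replicate numbers came from sample titles.

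After removing 64 control probe sets, limma 3.58.1 (R 4.3.3; lmFit, eBayes, group as only term) was fitted across all 45037 probe sets, with Benjamini-Hochberg adjustment over all of them. It has 2 residual degrees of freedom and a prior of 2.56. The fit was tested on simulated data. A gene was represented by its brightest probe set (highest mean), with no filter on dim values. All 14 probe sets of the 8 genes matched RefSeq by gene number. Of the listed pathway genes, up to 4 per list with the smallest p were named, and Trp63, Cdkn1a, Fasl, Col1a1, Krt5 and Epcam for their role, chosen after their values were seen; marker lists are given mostly as means. The genes and lists were chosen with earlier results of these data known. The likeness rule also named Trp53, to which it could not be applied.

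Both groups carry replicate numbers 1 and 2, which the labels do not tie to a tumour. Replicate differences of the groups correlated across probe sets with r = 0.18 (0.24 for probe sets at or above the median mean), which leaves the pairing undecided. With 2 tumours given for 4 arrays, arrays may share a tumour. The main fit takes the 4 arrays as independent, so its p-values leave any shared tumour out of account. Alternatives were the replicate block, 3 other scalings, a filter on dim probe sets, gene-level values, other priors, an adjusted p under 0.1 and leaving out each array.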

Additional observations from a re-analysis of the deposited data

How the results depend on the processing

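No alternative without spike-in scaling called any of the 14 probe sets, and the replicate block alone called 0 of them and 0 of all probe sets; the block with 1 probe set per gene, added after seeing the data, called 171 genes, Chek2 among them, and 0 of the 8 targets. Spike-in scaling, which assumes equal spike-in signal, called 27026 probe sets (60% of all) and 8 of the 14. It moved the median of the 8 genes from 0.23 to 1.03, beside 0.14 to 0.93 over all genes. It left 7 of the 8 apart above and 0 below, beside 15429 and 353 of all 18193 genes. Mdm2 turned to 0.34, Perp to 0.74 (called higher) and Fas to 0.72. Equal column medians left 0 of the 8 apart below, beside 1962 of all 18193 genes, and turned Perp (0.03) and Fas (0.01). Quantile normalization turned Fas with and without the block (0.02). Without dimmer probe sets the median was 0.33. Leaving out each array gave medians of 0.19 to 0.31, with 2 to 4 of the 8 genes apart above and 2 to 3 below. Of all 18193 genes, 8452 to 10037 were then apart above and 4266 to 5087 below. Differences ran from -0.51 to 0.78 for Trp53inp1, from -0.002 to 0.66 for Sesn2 and from -0.31 to 0.18 for Fas. Ccng1 (1.02 to 2.22) and Zmat3 (1.17 to 2.13) stayed above 0 in all 16 alternatives run, but most of these could not change the sign. The block, the filter, the priors, the threshold and 1 probe set per gene leave a difference as it is. Groups that do not overlap keep their sign when 1 array is left out. The cause of these changes was not tested beyond the construction of each alternative.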
